A study of Mus musculus with 2 samples.

Results

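The miR-29 family was examined in small RNA libraries of mouse hippocampus. It was taken as the 4 genes that GENCODE release M21 names Mir29a, Mir29b-1, Mir29b-2 and Mir29c, chosen by name among the 2202 microRNA genes of the deposited tables. All 4 genes had at least 10 reads in both libraries, the minimum for a gene to be called detected, as had 389 genes in all. The series held 2 libraries of 1 group, male 5xFAD/CAST mice labelled adult and 8 to 10 months old, and the tissue was labelled as a hippocampal layer. 5xFAD mice model Alzheimer disease through transgenes that are expressed in neurons from the Thy1 promoter, and CAST is a wild-derived inbred strain. How the 2 strains were combined is not stated in the labels. The libraries are numbered 1 and 2 as biological replicates but share a donor record, so whether they came from different animals is not settled, and every difference between them may be technical. Without a control group no effect of genotype or age was compared.

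MicroRNAs guide Argonaute proteins to messenger RNAs that pair with their seed, the bases near their 5′ end, and thereby lower translation and stability of those messages. The miR-29 family comes from 2 gene clusters, and its 3′ arms carry the seed for which it is known. Its known targets include the DNA methyltransferases Dnmt3a and Dnmt3b, collagens and elastin, pro-apoptotic BH3-only genes in neurons, and BACE1, the protease that starts amyloid-β formation. Its levels are known to rise as the brain matures, and miR-29a is known to be abundant in astrocytes as well as in neurons.

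The mature sequences are shown first, since they set which reads can be given to which gene. All 4 genes were matched in RefSeq's microRNA table (GRCm38.p6, the mm10 assembly). The 4 genes carry 8 annotated arms but 7 different mature sequences, because both Mir29b genes encode the same 3′ arm. In the lines below, capitals mark the seed, bases 2 to 8 from the 5′ end.
miR-29a-3p: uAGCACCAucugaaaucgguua
miR-29b-3p: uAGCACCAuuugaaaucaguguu
miR-29c-3p: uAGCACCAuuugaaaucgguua
miR-29a-5p: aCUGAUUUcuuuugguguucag
miR-29b-1-5p: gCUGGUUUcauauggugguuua
miR-29b-2-5p: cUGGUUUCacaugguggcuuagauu
miR-29c-5p: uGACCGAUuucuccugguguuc

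The 3′ arms of all 4 genes had the seed AGCACCA, and of the 1738 mature entries of the table only these 4 held it. Counted from the 5′ end, miR-29a-3p and miR-29c-3p differed at 1 base, C10U. miR-29b-3p and miR-29c-3p shared their first 17 bases and then differed by A18G, G21U and U22A, with lengths of 23 and 22 bases. The seeds of the 5′ arms differed between all 4 genes.

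The hairpins of the Mir29b genes are shown because a read within their shared part fits both. Capitals mark the longest run that these hairpins have in common, 25 bases that hold the whole of miR-29b-3p.
Mir29b-1 (chr6:31063023-31063093, minus strand): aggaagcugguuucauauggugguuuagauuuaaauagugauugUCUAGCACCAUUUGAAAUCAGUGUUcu
Mir29b-2 (chr1:195037040-195037120, plus strand): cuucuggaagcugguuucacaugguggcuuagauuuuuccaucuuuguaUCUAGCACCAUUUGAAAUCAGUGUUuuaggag

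Mir29b-1 also had a run of 22 bases in common with the Mir29c hairpin, which ends before the last bases of miR-29c-3p. The longest run of Mir29a with any other member was 14 bases, with Mir29c. Mir29b-1, Mir29b-2 and Mir29c therefore counted as genes that share at least 20 bases with a microRNA gene elsewhere, and Mir29a did not. The complete miR-29a-3p and miR-29c-3p each occurred in 1 annotated hairpin, against 2 for miR-29b-3p. The deposited counts hold reads that fit several places in a row that names no gene. How many of them were reads of miR-29b-3p is not given, so the levels of both Mir29b genes are uncertain and may be too low.

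The members lie in 2 pairs (mm10). Mir29a (ENSMUSG00000065610.1, chromosome 6, 31062660 to 31062747) and Mir29b-1 (ENSMUSG00000065604.2) are both on the minus strand, with 275 bases between their hairpins. Mir29a lies outside other annotated genes, and 2 bases of Mir29b-1 overlap an exon of the lincRNA Gm27019 on the same strand. Mir29b-2 (ENSMUSG00000065412.3) and Mir29c (ENSMUSG00000065548.1, chromosome 1, 195037547 to 195037634) are on the plus strand, 426 bases apart. Both lie in an exon of the noncoding transcript A330023F24Rik, and opposite an exon of Cd46. None of the 4 genes had a read on the opposite strand in either library, and the count without regard to strand equalled the count on the strand of the gene.

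Replicate 1 held 3421977 reads assigned to microRNA genes and replicate 2 held 2820468, which were 35.2% and 33.0% of all reads. A count of 0 would allow up to 0.877 and 1.06 CPM (3 reads; CPM is counts per 1000000 assigned reads). Reads that fit several places made up 41.6% and 38.2% of all reads. Of 17 neuron-enriched genes 13 were detected, led by Mir132 at 12751 ± 1353 CPM (SD, n = 2), but of the neuronal miR-124 genes, which share sequence with one another, Mir124a-2 and Mir124a-3 stood at 0 and Mir124a-1 at 5 reads per library. By the exact binomial test used for the members, 33.7% of the detected genes were called higher and 33.9% lower in replicate 1. The epithelial list took 0.0712% and 0.0111% of the assigned reads, with all 6 detected members of 8 called higher in replicate 1. The choroid plexus and ependyma list took 0.342% and 0.164%, with 3 of 5 called higher, 1 (Mir449a) lower and 1 (Mir211) not called, and most of its reads were those of Mir34c and Mir204. The microglia and leukocyte list took 0.521% and 0.448%, with 5 of 6 called higher and 0 lower. The neuron list took 3.4% and 3.6%, with 4 called higher, 8 lower and 1 not called. The oligodendrocyte list took 0.503% and 0.666%, with 1 called higher and 1 lower, and the 1 gene of the endothelium list was called higher. The part of these lists in the differences below was not tested.

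The family took 1.32% ± 0.19 of the assigned reads (SD, n = 2), almost all of it through Mir29a. The share was 1.19% in replicate 1 (40693 reads, exact Clopper-Pearson 95% interval 1.18 to 1.20) and 1.45% in replicate 2 (40922 reads, 1.44 to 1.47). These intervals cover counting error only, and the libraries lay further apart than they allow. Each small RNA read was taken to stand for 1 mature microRNA, so the levels in CPM of hairpins 71 to 88 bases long were set side by side without dividing by length.

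Mir29a had 37034 reads in replicate 1 and 37645 in replicate 2, or 10822 and 13347 CPM. It was 91.0% and 92.0% of the family's reads. By its mean level of 12085 ± 1785 CPM it was the 16th most abundant of all microRNA genes, at place 19 in replicate 1 and 16 in replicate 2. This place and those of the other members rank genes by reads that carry a gene name only. Genes whose reads fit several places may therefore stand too low.

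Mir29c had 3386 and 2838 reads, or 989 and 1006 CPM. Its mean of 998 ± 11.8 CPM put it at place 91, and it held 8.32% and 6.94% of the family's reads. The libraries nearly coincided for this gene on the CPM scale, with an SD of 1.19% of the mean.

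Mir29b-1 had 138 and 225 reads, or 40.3 and 79.8 CPM. Mir29b-2 had 135 and 214 reads, or 39.4 and 75.9 CPM. Both copies were at about the same low level within each library and about 2 times as high in replicate 2 as in replicate 1 on the CPM scale. Their means, 60.0 ± 27.9 and 57.7 ± 25.7 CPM, put them at places 221 and 224 of all genes, and at places 52 and 54 among the 81 detected genes that share 20 bases with another. The 2 copies together held 0.671% and 1.07% of the family's reads. This share counts only reads that carry a gene name, so it does not give the abundance of miR-29b-3p in the tissue.

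**Figure D1:**
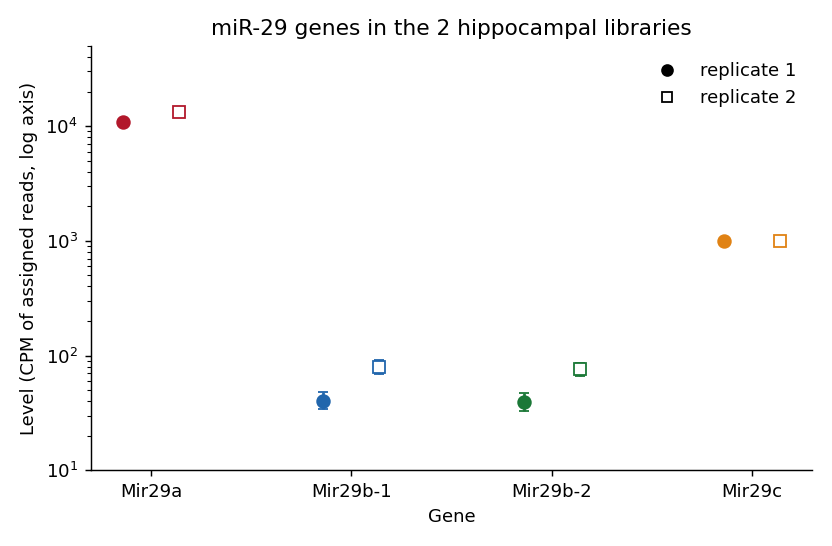
Level of each miR-29 gene in CPM of assigned reads (log axis) in replicate 1 (filled circles) and replicate 2 (open squares), with exact 95% intervals of the counts, which are smaller than the symbol for Mir29a and Mir29c. Mir29a lies at 10822 and 13347 CPM, Mir29c at 989 and 1006 CPM, and both Mir29b genes between 39.4 and 79.8 CPM.

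The order of the levels was Mir29a, Mir29c, Mir29b-1, Mir29b-2 in both libraries. The steps between them were not equally firm. The ratio of Mir29a to Mir29c was 10.9 in replicate 1 and 13.3 in replicate 2, and the ratio of Mir29c to Mir29b-1 was 24.5 and 12.6. Mir29b-1 and Mir29b-2 could not be ordered at this depth: Mir29b-1 took 50.5% of the reads of the pair in replicate 1 (95% interval 44.5 to 56.6, two-sided exact binomial test against equal shares, p = 0.90) and 51.3% in replicate 2 (46.5 to 56.0, p = 0.63). In the plot of ranks, the members therefore stand at 3 heights. These heights count only reads that carry a gene name. How many reads of the 3′ arm shared by the Mir29b genes carry no gene name is not given. The steps down to these genes are therefore uncertain and may be too large.

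**Figure D2:**
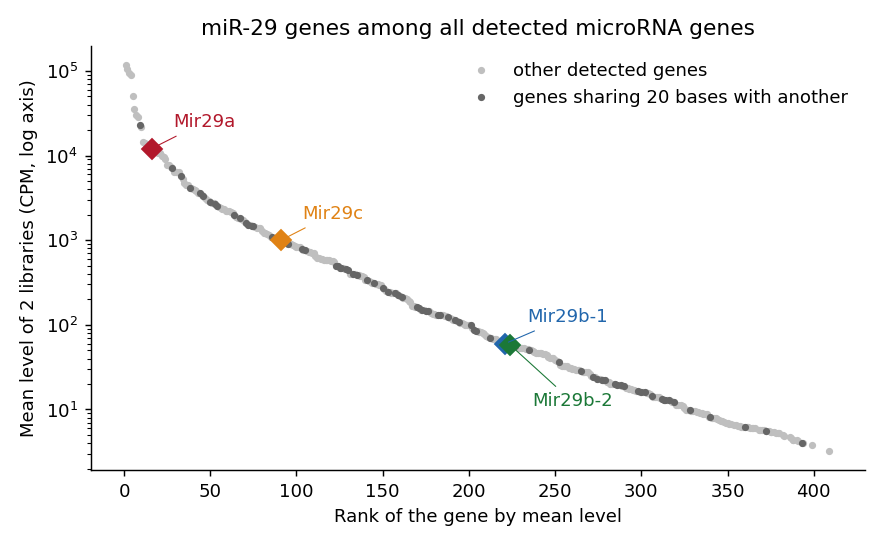
Mean level of 2 libraries in CPM (log axis) against the rank of the gene among all microRNA genes, for the 389 detected genes. Dark points are genes that share 20 bases with a microRNA gene elsewhere, and diamonds mark Mir29a at place 16, Mir29c at 91, Mir29b-1 at 221 and Mir29b-2 at 224.

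Neighbouring genes of one cluster had very different counts. On chromosome 6, Mir29a had 268 times the reads of Mir29b-1 in replicate 1 and 167 times in replicate 2. On chromosome 1, Mir29c had 25.1 times the reads of Mir29b-2 in replicate 1 and 13.3 times in replicate 2. Reads of miR-29b-3p, which both Mir29b genes encode, may carry no gene name. These ratios therefore need not be those of the mature microRNAs in the tissue, and the sums below have the same limit. The chromosome 6 cluster summed to 12145 ± 1813 CPM and the chromosome 1 cluster to 1056 ± 37.6 CPM (SD, n = 2).

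The libraries differed for Mir29a and for both Mir29b genes, all 3 lower in replicate 1, as were 33.9% of the detected genes by the same test. Each log2 ratio divides the TMM-scaled level of replicate 1 by that of replicate 2 and is given with its exact 95% interval. A gene was called where the two-sided exact binomial test, adjusted by Benjamini-Hochberg over the 389 detected genes, gave p under 0.05. This test compares 2 libraries, not conditions. The log2 ratio was -0.20 for Mir29a (-0.22 to -0.18, exact binomial test, adjusted p = 5.27e-82). That was a 1.15-fold difference, measured on 37034 and 37645 reads. The log2 ratio was -0.89 for Mir29b-1 (-1.20 to -0.57, exact binomial test, adjusted p = 2.34e-08), a 1.85-fold difference. It was -0.84 for Mir29b-2 (-1.17 to -0.53, exact binomial test, adjusted p = 1.50e-07), a 1.80-fold difference. Mir29c had a log2 ratio of 0.075 (0.0024 to 0.15), which did not pass (exact binomial test, adjusted p = 0.061), and its sign turned with the scaling, at -0.024 with library totals in place of TMM.

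Of the detected genes, 67.6% were called in either direction, beside 3 of the 4 members, and 33.9% were called lower in replicate 1, beside the same 3 members. The median log2 ratio was -0.52 over the 4 members and -0.053 over all detected genes. The 2 Mir29b genes share a mature sequence, so the 3 calls are not independent of one another. Mir29a differed less than most genes: 80 of 389 had a smaller difference, against 28 for Mir29c, 283 for Mir29b-1 and 279 for Mir29b-2. Over all detected genes, edgeR's common coefficient of variation between the libraries was 0.41. The edgeR exact test, whose error includes the difference between the same libraries, called none of the 4 members, with unadjusted p between 0.32 and 0.93 and every adjusted p at 1. It called 2 of 389 genes in all, and 23 had an unadjusted p under 0.05.

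The members are poor in G and C, at 35.2% to 44.3% of the hairpin against a median of 52.1% over detected genes, and the log2 ratio had a slope of -0.023 per percentage point of GC content across genes. After that line was subtracted, the log2 ratio was -0.48 for Mir29a, -1.24 for Mir29b-1, -1.10 for Mir29b-2 and -0.074 for Mir29c. The part of GC content in these differences was not tested further.

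**Figure D3:**
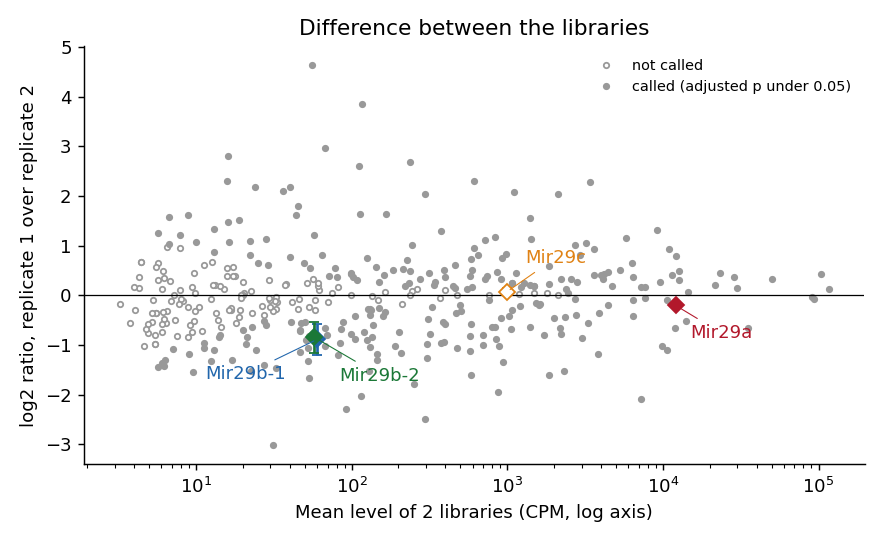
Log2 ratio of replicate 1 over replicate 2 on TMM-scaled counts against the mean level in CPM (log axis) for the 389 detected genes. Filled points passed the exact binomial test with adjusted p under 0.05, open points did not, and the members carry exact 95% intervals: Mir29a, Mir29b-1 and Mir29b-2 lie below 0 and Mir29c, open, at 0.075.

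The makeup of the family differed between the libraries too, a comparison that needs no scaling. All 6 pairs of members were compared by a two-sided Fisher's exact test on their reads in both libraries, adjusted over the 6 pairs. By this test 5 pairs differed, and the 6 pairs are not independent because they share members. Pairs of other genes were not compared, while 67.6% of single detected genes were called by the exact binomial test. The count of 5 is therefore not shown to be particular to this family. Fisher's test covers counting error only, and no test that includes the spread between libraries was run on these ratios. The ratio of Mir29a to Mir29c was lower in replicate 1, with a log2 odds ratio of -0.28 (95% interval -0.35 to -0.20, Fisher's exact test, adjusted p = 1.90e-12). The ratio of Mir29b-1 to Mir29c was lower in replicate 1 (log2 odds ratio -0.96, -1.28 to -0.64), as was that of Mir29b-2 to Mir29c (-0.92, -1.25 to -0.59). Within the chromosome 6 cluster, the ratio of Mir29a to Mir29b-1 was higher in replicate 1 (0.68, 0.37 to 1.00). The exception was the Mir29b pair, with a log2 odds ratio of -0.041 (-0.49 to 0.41, Fisher's exact test, adjusted p = 0.88), an interval that allows a change of up to about 0.5 in either direction. The ratio of Mir29b-1 to Mir29b-2, copies on different chromosomes, was 1.02 in replicate 1 and 1.05 in replicate 2. The ratio within each cluster differed between the libraries. Reads that fit both Mir29b copies may carry no gene name, and their part in the ratio of the copies was not tested.

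The closeness of the Mir29b copies was set beside other duplicated genes, a comparison chosen after its values were seen and given with no test. RefSeq's table gave 37 pairs of genes, at different places, with a mature sequence that occurs in those 2 genes only. Another 3 mature sequences were skipped because a gene symbol was not found exactly 1 time among the counted genes. In 18 pairs both genes were detected. Mir29b-1 and Mir29b-2 had the smallest mean size of the log2 ratio between copies, 0.052 (0.032 in replicate 1 and 0.072 in replicate 2), against a median of 1.502 over the 18 pairs. The next pair, Mir30c-1 and Mir30c-2, stood at 0.61, with 610 and 831 reads in replicate 1 and 405 and 691 in replicate 2. The widest gap was 6.35, between Mir181b-1 and Mir181b-2. Reads that fit both copies may carry no gene, so these ratios need not be those of the precursors.

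**Figure D4:**
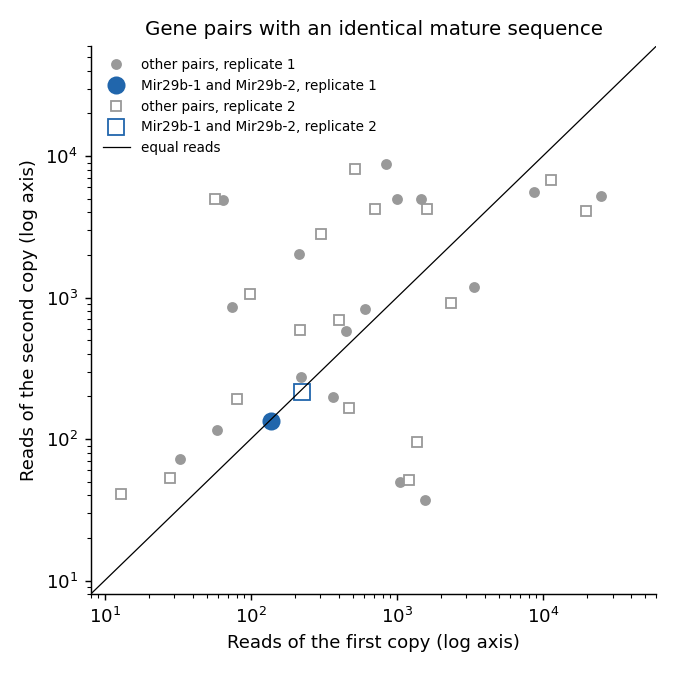
Reads of the second copy against reads of the first (log axes) for the 18 pairs of genes with an identical mature sequence and both genes detected, in replicate 1 (filled circles) and replicate 2 (open squares). The Mir29b pair (large blue symbols) lies on the line of equal reads in both libraries, with 138 and 135 reads in replicate 1 and 225 and 214 in replicate 2.

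Other genes at a similar level were named as the 2 detected genes nearest to each member by distance of log2(CPM + 1) over the 2 libraries. With 2 libraries this likeness says only that levels were alike. Mir29a was nearest to Mir770 (9910 and 11284 CPM, distance 0.27) and Mir330 (8900 and 14945 CPM, distance 0.33). Mir29c was nearest to Mir130a (1126 and 1016 CPM) and Mir146 (1132 and 1020 CPM, shared sequence), at distances of 0.19 and 0.20. Mir29b-1 and Mir29b-2 were each other's nearest gene, at 0.078. After that copy, Mir29b-1 was nearest to Mir7044 (42.7 and 92.5 CPM) and Mir29b-2 to the gene annotated as Snord43 (36.8 and 69.1 CPM).

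The family was also placed in lists of microRNAs known for astrocytes or for targeting BACE1. In bulk tissue, fewer cells of a type and less RNA per cell cannot be told apart. Of the 12 astrocyte-rich genes all were detected, and they took 5.05% ± 0.60 of the assigned reads, of which the miR-29 genes made up 26.1%. Mir23b led with 26058 and 20485 CPM, Mir23a had 15031 and 9331 CPM, and Mir29a came after them by its mean, although it was above Mir23a in replicate 2. Both Mir23 genes differed in the direction opposite to Mir29a, with log2 ratios of 0.45 for Mir23b and 0.79 for Mir23a. In the list 4 genes were higher and 7 lower in replicate 1, with 1 not called and a median log2 ratio of -0.18. Of all detected genes 33.7% were higher and 33.9% lower, with a median of -0.053. Mir29a, Mir29b-1 and Mir29b-2 were themselves among the 7 lower genes, and Mir29c was the 1 not called. The counts of the list are therefore not independent of the members. Of these 12 genes, 11 share at least 20 bases with another gene, so their levels are uncertain, and Mir29a is the exception. Mir29c is among the 11, although the complete miR-29c-3p occurs in 1 annotated hairpin.

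Of the 16 genes that encode microRNAs reported to act on BACE1 messenger RNA, 12 were detected, and they took 3.18% ± 0.59 of the assigned reads. The miR-29 genes were 41.5% of that share. Of the 12 detected genes 6 share sequence with another gene, as do all undetected genes of the list, so their levels are uncertain. The 41.5% counts only reads that carry a gene name and may be too high where genes of the list lost such reads. Mir328 led it with 11166 and 17114 CPM, followed by Mir29a and by Mir107 with 2773 and 2350 CPM. Mir328 was lower in replicate 1, as Mir29a was (log2 ratio -0.52), and Mir107 was higher (0.34). In this list 3 genes were higher and 7 lower in replicate 1, with 2 not called and a median log2 ratio of -0.15. Beside these stand the same 33.7%, 33.9% and -0.053 over all detected genes. Here too Mir29a, Mir29b-1 and Mir29b-2 were among the 7 lower genes, and Mir29c was among the 2 not called. Without disease-free tissue these levels do not show a change with the transgenes.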

How the data were processed

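MicroRNA-seq libraries (size range under 30 per the labels, no unit given) were analysed from 2 samples. Each deposited table held the authors' raw counts of reads per microRNA gene in 3 columns (strand ignored, gene's strand, opposite strand), for mm10 and GENCODE M21 per the text notes deposited with the files. The sources used here do not name aligner or counting tool. Counts on the gene's strand were used. Rows that name no gene (64.8% and 67.0% of reads), among them the row of reads that fit several places, were left out. All 2202 gene IDs were found in GENCODE M21. CPM, shares and exact intervals were computed with scipy 1.17.1, TMM factors, the coefficient of variation and the exact test with edgeR 4.0.16, and alternative size factors with DESeq2 1.42.0. A quasi-likelihood test needs a contrast, which 1 group does not give. On simulated Poisson counts for this comparison, 8 of 187 unchanged genes among 386 tested were called. Such counts hold counting error only, so this rate does not carry over to the real libraries, which differed by more. The genes named were the 4 members, the 2 nearest to each, genes with the same seed and the 3 leading genes of 2 lists; Mir132, the Mir124a genes, the named choroid genes and the Mir30c and Mir181b pairs were added after their values were seen. Members and lists were chosen with earlier results of these data known. Since molecular identifiers were not counted, every interval and floor covers only counting error.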

Additional observations from a re-analysis of the deposited data

How the results depend on the processing

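No paired analysis was possible because the series has 1 group. With all reads as the denominator the family's share was 0.449%, by construction, and leaving out 1 replicate gave 1.19% to 1.45%. Without regard to strand, all members had higher levels, at 12927 CPM for Mir29a, 64.2 for Mir29b-1, 61.6 for Mir29b-2 and 1068 for Mir29c. Their counts were the same, so the rise came from a smaller total of assigned reads. The level ranged over the replicates left out from 10822 to 13347 CPM for Mir29a, 40.3 to 79.8 for Mir29b-1, 39.4 to 75.9 for Mir29b-2 and 989 to 1006 for Mir29c. With the edgeR exact test 2 genes were called in place of 263, and the calls of Mir29a (log2 ratio -0.20), Mir29b-1 (-0.88) and Mir29b-2 (-0.84) were lost, since its error includes the spread between the libraries. The log2 ratio of Mir29c, not called on TMM-scaled counts, was -0.024 with library totals and -0.074 after GC correction, neither called, and passed at 0.13 with DESeq2 size factors (adjusted p = 0.00091, exact binomial test), at 0.11 without regard to strand (0.0062) and at 0.075 with a minimum of 100 reads per library (0.049). The other alternatives kept the direction and the call of each member, and the ratios between members were the same without regard to strand. The Mir29b genes rest on 135 to 225 reads per library, which limits their precision.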
